A study of Mus musculus with 9 samples.

Results

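Expression of 8 genes of cholesterol synthesis and its feedback control was examined in stromal cells of mouse spleen and lymph node. The genes were taken by name from the deposited table, where all 8 were found among 27370 genes, and all 8 passed the filter on low counts. They are Hmgcs1, Mvd, Idi1, Fdps, Fdft1, Sqle, Cyp51 and Insig1. None of them is an uptake receptor, so uptake genes are described separately from a list of their own.

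The study sequenced polyadenylated RNA of sorted fibroblasts in 3 groups of 3 libraries. Fibroblastic reticular cells (FRC) came from lymph nodes and red pulp fibroblasts (RPF) from spleen, both of untreated mice. The third group was RPF from mice given diphtheria toxin, labelled as the depleted state. All groups carried the alleles Wt1CreERT2, RosatdTomato and CD64DTR and were 4 months old, so the controls carried the toxin receptor allele too. RPF were sorted as tdTomato+ cells, marked through a Cre driven by Wt1, and FRC as tdTomato- cells. Both sorts followed depletion of CD45+ cells and staining for CD45, gp38, CD31 and VCAM1. Each library pooled 2 mice, and each group held 6 mice. Only 12 mice were used in all, and 6 of them were in the depleted group. The same 6 untreated mice therefore gave both FRC and steady RPF. The labels do not tie these libraries to single mice, and the test treats them as independent.

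Libraries held between 25414645 and 43879806 counts. The TMM factors, which multiply library size before CPM are taken, were 0.765 to 0.827 in FRC. They were 1.18 to 1.20 in steady RPF and 1.05 to 1.07 in depleted RPF. A lower factor gives a higher CPM for the same counts. Mitochondrial genes took 1.98% to 2.24% of counts in FRC and 0.519% to 0.72% in both RPF groups, so this share separates FRC from RPF, and its part in the FRC comparisons was not tested. Wt1 was at 62.1 ± 2.57 CPM in steady RPF and 1.64 ± 1.18 CPM in FRC (SD, n = 3), and Ccl21a was at 0.572 ± 0.0836 and 1134 ± 98.2 CPM. In depleted RPF, Wt1 was at 34.4 ± 6.55 and Ccl21a at 0.646 ± 0.543 CPM, and Tcf21 was at 213.0 ± 52.1 CPM against 715.5 ± 85.3 in steady RPF. Pdgfrb was higher there, at 2331 ± 106.3 CPM against 941.9 ± 27.7 in steady RPF. Col1a2 was at 806.1 ± 123.4 CPM against 1855 ± 73.2, and Col3a1 at 808.7 ± 107.2 against 1636 ± 391. Pdpn was at 0.0733 ± 0.0629 CPM against 0.0981 ± 0.0874. Of 10 sorted fibroblast markers, 1 was higher and 4 were lower in depleted than in steady RPF (edgeR adjusted p under 0.05). Over all genes tested, 11.1% were higher and 9.96% lower. FRC replicate 1 and RPF steady replicate 1 held 69 and 24 Y-linked counts, against 2315 to 6124 in the other 7 libraries. The depleted RPF libraries held 3764 to 4568, so Y-linked reads are not balanced between depleted and steady RPF. Where a call was lost without the pair of libraries with almost no Y-linked reads, the adjusted p without that pair is given. Summed CPM of 12 red pulp macrophage markers ranged from 286.7 to 343.3 in steady RPF, 80.53 to 118.9 in depleted RPF and 81.21 to 103.8 in FRC. Mertk took most of the sum in depleted RPF, and alone was at 84.0 ± 20.4, 89.3 ± 14.2 and 24.9 ± 5.32 CPM in the same order. C1qb was at 48.4 ± 8.78, 0.423 ± 0.709 and 5.28 ± 4.24 CPM. In depleted RPF, C1qa, Cd5l, Adgre1 and Fcgr1 had 0 counts, and Cd5l had 0 in FRC. Summed erythroid markers (7 genes) ranged from 168.4 to 724.6 CPM in steady RPF, 394.8 to 625.4 in depleted RPF and 0.507 to 99.13 in FRC. Summed endothelial markers (9 genes) ranged from 450.1 to 564.8, 242.5 to 436.7 and 106.8 to 129.9 CPM in the same order, with Lyve1 at 0 counts in both RPF groups, Emcn at 0 in depleted RPF and Kdr at 0 in FRC. Of these sums, Plvap alone was at 375.5 ± 23.9, 309.2 ± 97.5 and 48.1 ± 5.63 CPM. Summed neutrophil markers (8 genes) ranged from 47.3 to 350.3 CPM in steady RPF, 2.39 to 48.4 in depleted RPF and 0.0683 to 6.56 in FRC, where Camp and Ly6g had 0 counts. Summed B and plasma cell markers (6 genes) ranged from 102.0 to 227.1, 18.9 to 42.9 and 76.1 to 168.5 CPM in that order, with Pax5 at 0 counts in steady RPF and FRC, and Ms4a1 at 0 in FRC. Summed cycling markers (10 genes) ranged from 120.2 to 158.4, 155.6 to 220.0 and 65.0 to 88.5 CPM, with Mki67 at 0 counts in FRC. The part of these cells in the results below was not tested.

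Cholesterol is built from acetyl-CoA through mevalonate, isoprenoid units, squalene and lanosterol. When membrane sterol is low, the transcription factor SREBP-2 (gene Srebf2) is carried from the endoplasmic reticulum to the Golgi, cleaved, and switches on the genes of this route. INSIG-1 holds the SREBP escort protein SCAP in the endoplasmic reticulum when sterol is plentiful, and its own gene is an SREBP target.

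Promoter sequence is shown for 3 genes with different patterns across the groups: Hmgcs1, lower in both RPF groups than in FRC, Mvd, higher in both, and Insig1, lowest in depleted RPF. The sequences are from RefSeq (GRCm38.p6), 5′ to 3′ on the gene's strand, and end just upstream of the start site (Insig1 is shown only up to where the gene begins in the deposited table). Capitals mark matches to a sterol regulatory element, TCACNCCAC, and to the NF-Y box, CCAAT, on either strand. Hmgcs1 lies at chr13:119690101-119690350 (+), Mvd at chr8:122443423-122443672 (-) and Insig1 at chr5:28071162-28071362 (+).
Hmgcs1: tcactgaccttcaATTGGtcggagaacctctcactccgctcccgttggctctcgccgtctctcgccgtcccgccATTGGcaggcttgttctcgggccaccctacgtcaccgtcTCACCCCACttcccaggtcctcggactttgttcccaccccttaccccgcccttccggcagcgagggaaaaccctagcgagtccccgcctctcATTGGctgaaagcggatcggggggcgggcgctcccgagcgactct
Mvd: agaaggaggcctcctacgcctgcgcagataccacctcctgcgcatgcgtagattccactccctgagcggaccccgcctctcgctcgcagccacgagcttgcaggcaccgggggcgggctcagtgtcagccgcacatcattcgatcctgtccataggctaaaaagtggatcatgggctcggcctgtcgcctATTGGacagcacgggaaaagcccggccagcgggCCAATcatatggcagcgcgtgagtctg
Insig1: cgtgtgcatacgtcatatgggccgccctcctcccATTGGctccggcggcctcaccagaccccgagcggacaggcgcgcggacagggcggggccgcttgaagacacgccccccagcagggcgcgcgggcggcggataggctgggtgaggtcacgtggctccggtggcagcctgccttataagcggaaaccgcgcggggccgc
Of the 8 genes, 5 had a promoter in the reference table, and motifs were searched on both strands in the 250 bases upstream. TCACNCCAC was found in 1 of the 5, in Hmgcs1 at position -137 from the start site, and in 1.04% of 27025 promoters. CCAAT was found in 5 of 5 and in 34.5% of all promoters, with 3 matches in Hmgcs1, 2 in Mvd and in Idi1, and 1 in Cyp51 and in Insig1. The GC box GGGCGG was also in 5 of 5, against 32.9% of all promoters. The E-box CACGTG was in Insig1 alone of the 5, against 6.05%. A match describes the letters in this window and is not evidence of binding.

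In FRC, reads per transcript length ordered the genes as follows, on the scale of CPM per kb. Insig1 was at 61.5 ± 6.81, Cyp51 at 51.0 ± 19.4, Hmgcs1 at 32.0 ± 8.16 and Sqle at 12.9 ± 2.05 (SD, n = 3). Fdft1 followed at 8.71 ± 3.03 and Mvd at 3.45 ± 0.0872, and Fdps at 0.821 ± 0.278 and Idi1 at 0.561 ± 0.288 came last. The SDs of Insig1 and Cyp51, of Cyp51 and Hmgcs1, of Sqle and Fdft1, and of Fdps and Idi1 overlapped. The place of Cyp51 depends on the length used. The deposited median length is 737 bases, and its longest coding transcript in GENCODE is 3931 bases. At the longest transcript of each gene, an alternative chosen after seeing the data, Cyp51 was at 9.56 ± 3.63 CPM per kb, below Insig1 (39.4), Hmgcs1 (23.1) and Sqle (12.7). The values of Idi1 and Fdps are uncertain. Idi1 had 41, 59 and 80 counts per group in FRC, steady RPF and depleted RPF, and Fdps had 71, 83 and 95. Transcripts of 3 other genes matched Idi1 and of 5 others matched Fdps over at least 300 bases at 95% identity or more. By the same search, Fdft1 matched a pseudogene, Gm6781, over 1249 bases at 97.4% identity (90 counts in all), and Ctsb over 774 bases. Hmgcs1 matched Gm48342 over 462 bases. No match was found for Mvd, Sqle, Cyp51 or Insig1.

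**Figure D1:**
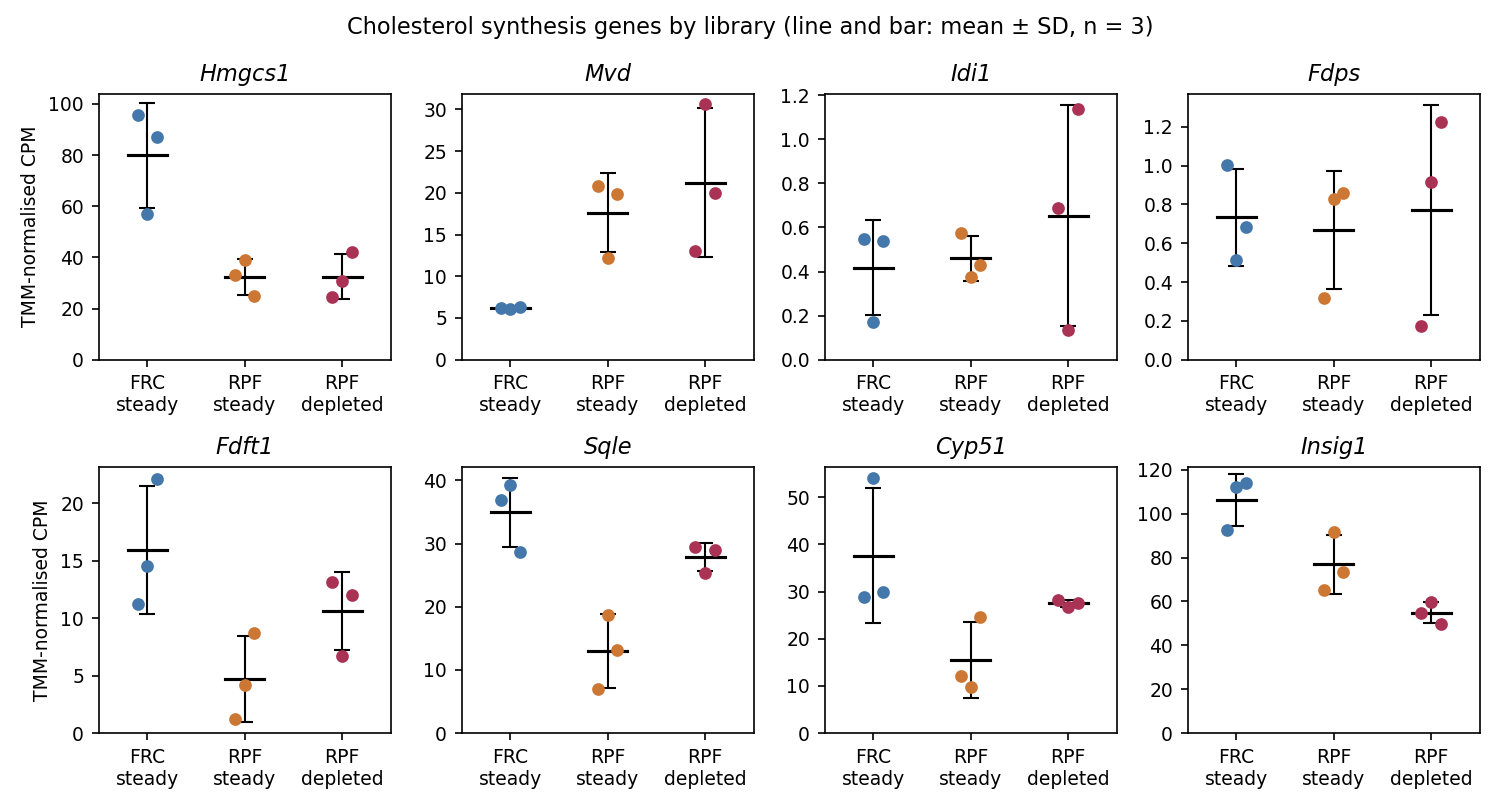
TMM-normalised CPM (vertical axis, linear, from 0) of each of the 8 genes in each library (points) for the 3 groups, with the mean (line) and SD (bar, n = 3). Sqle in steady RPF lies between 7.03 and 18.7 CPM, below all libraries of both other groups, while Mvd in FRC lies between 6.04 and 6.35 CPM, below all RPF libraries.

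Steady RPF held less mRNA of Hmgcs1, Sqle and Cyp51 than FRC and more of Mvd. Of the 8 genes, 3 were lower and 1 was higher. Over all 15103 genes tested, 14.4% were lower and 11.5% higher. The median log2 fold change was -0.87 for the 8 genes and -0.02 for all genes tested. The fold changes, and whether libraries overlap, depend on the TMM factors, which differ most between FRC and steady RPF. Scaling by total counts alone was not tried. In these bulk libraries, fewer cells of a type and less RNA per cell cannot be told apart.

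Hmgcs1 encodes HMG-CoA synthase, an early enzyme of the mevalonate route. Its level was 95.6, 56.8 and 87.2 CPM in the FRC libraries and 33.1, 38.9 and 24.7 CPM in steady RPF. Every steady RPF library was below every FRC library, and the log2 fold change was -1.31 (SE 0.29, edgeR adjusted p = 0.00945). An antisense gene model, Gm48342, overlaps Hmgcs1 and held 13 counts in all.

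Mvd encodes mevalonate diphosphate decarboxylase, which makes isopentenyl diphosphate. It was at 6.19, 6.04 and 6.35 CPM in FRC and 20.8, 12.2 and 19.8 CPM in steady RPF, with no overlap. The log2 fold change was 1.51 (SE 0.37, edgeR adjusted p = 0.0173), the opposite direction to the other 3 called genes. The call was lost without RPF steady replicate 1 (edgeR adjusted p = 0.0636), without RPF steady replicate 3 (0.0591) and with limma-voom (0.0564).

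Sqle encodes squalene epoxidase, the first oxygen-requiring step toward sterols. FRC libraries held 36.8, 39.2 and 28.7 CPM and steady RPF libraries 7.03, 18.7 and 13.2 CPM. All 3 steady RPF values were lower than all FRC values, and the log2 fold change was -1.43 (SE 0.34, edgeR adjusted p = 0.0142).

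Cyp51 encodes lanosterol 14-alpha-demethylase. It was at 28.8, 54.1 and 29.8 CPM in FRC and 12.1, 9.67 and 24.7 CPM in steady RPF. The groups did not overlap, and the log2 fold change was -1.28 (SE 0.39, edgeR adjusted p = 0.0395). This call is fragile: it was lost in 10 of 18 alternatives. Among single libraries it was lost without FRC replicate 2 (edgeR adjusted p = 0.127) or 3 (0.0514), RPF steady replicate 1 (0.13) or 2 (0.122), and RPF depleted replicate 1 (0.0607), 2 (0.0617) or 3 (0.0604). Cyp51 overlaps Akap9 on the opposite strand by 166 bases, and Akap9 held 4101 counts in all.

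The other 4 genes did not pass the test. Fdft1, which encodes squalene synthase, was at 11.3, 14.5 and 22.1 CPM in FRC and 1.21, 4.21 and 8.70 CPM in steady RPF. The groups did not overlap (log2 fold change -1.76, SE 0.67, edgeR adjusted p = 0.0852), and the gene passed without RPF steady replicate 3 (log2 fold change -2.55, edgeR adjusted p = 0.0382), with DESeq2 (0.0279), with limma-voom (0.022) and with a model term for the pair of libraries with almost no Y-linked reads (0.0326). Fdft1 overlaps Ctsb on the opposite strand by 774 bases, and Ctsb held 592654 counts, so reads of the pair may be hard to separate where counting ignored strand. Insig1 was at 92.6, 112 and 113.8 CPM in FRC and 65.3, 91.9 and 73.5 CPM in steady RPF. Its groups did not overlap either on the TMM scale (log2 fold change -0.47, SE 0.17, edgeR adjusted p = 0.0717). Insig1 passed with DESeq2 (0.0472), with the term for that pair (0.0482) and without RPF steady replicate 2 (-0.61, edgeR adjusted p = 0.0444). The lack of overlap rests on the TMM factors. In raw counts of Insig1, RPF steady replicate 2 held 4654 of 42306524 and FRC replicate 3 held 3814 of 43879806. Idi1, the isopentenyl diphosphate isomerase gene, had a log2 fold change of 0.14 with a 95% interval from -2.52 to 2.79. Fdps, the farnesyl diphosphate synthase gene, had -0.13 with an interval from -2.70 to 2.44. For both genes, changes in either direction within these intervals cannot be told from none. Without FRC replicate 1 and RPF steady replicate 1 together, none of the 8 genes was called in steady RPF against FRC with edgeR. The adjusted p was then 0.0822 for Hmgcs1, 0.0541 for Sqle, 0.125 for Cyp51 and 0.115 for Mvd, and the log2 fold changes were -1.17, -1.09, -1.29 and 1.37.

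**Figure D2:**
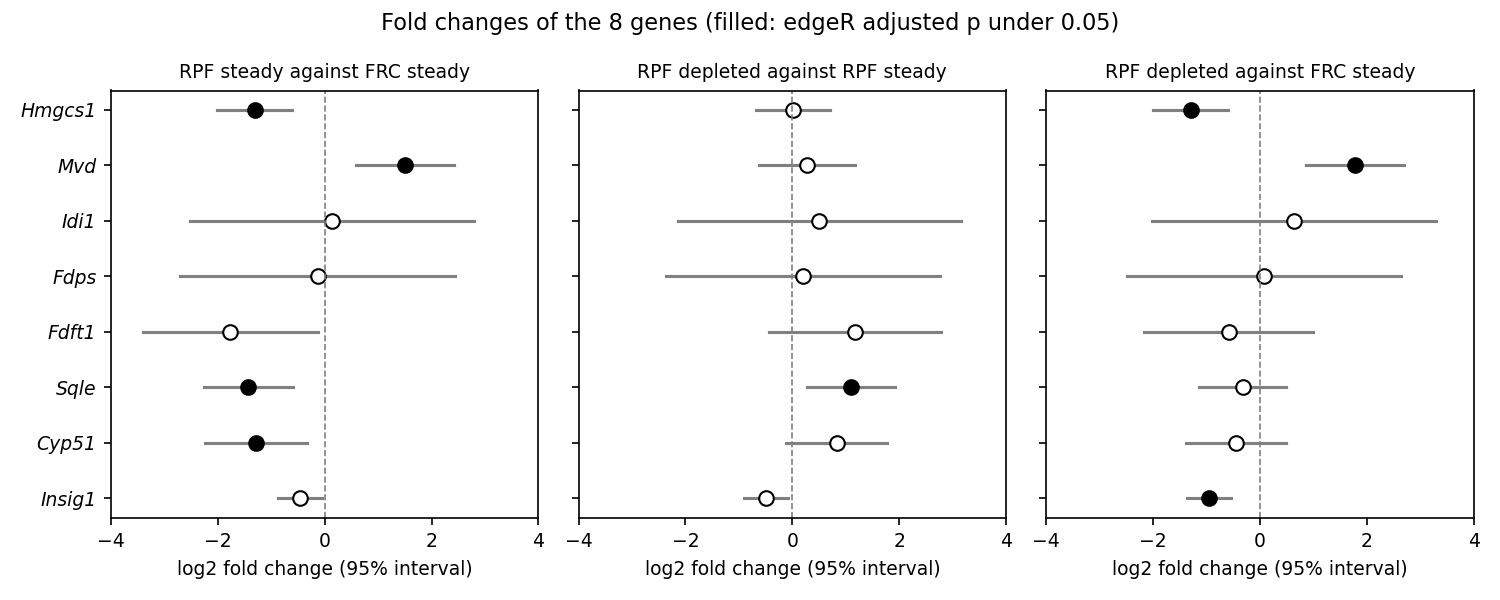
Log2 fold changes (horizontal axis) of the 8 genes in the 3 comparisons, with 95% intervals as lines; filled points passed an edgeR adjusted p under 0.05. Mvd lies to the right of 0 in both comparisons with FRC (1.51 and 1.78), and Sqle is the only filled point in depleted against steady RPF (1.1).

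After toxin, Sqle was higher in RPF, a call lost in 14 of 18 alternatives, and no other gene of the 8 passed the test. In depleted against steady RPF, 1 of the 8 was higher and 0 were lower, where over all genes tested 11.1% were higher and 9.96% lower. Unadjusted p was under 0.05 for 2 of the 8, Sqle (higher) and Insig1 (lower), and for 16.2% (higher) and 16.9% (lower) of all genes tested. The median log2 fold change was 0.39 for the 8 genes and -0.09 for all genes tested. Of 11 macrophage markers tested, 7 were lower and 0 higher in this contrast, and of 5 B and plasma cell markers tested, 2 were lower and 0 higher. Their summed ranges are given above, and their part was not tested. Of 10 cycling markers, 1 was higher and 0 lower.

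Sqle was at 29.4, 25.4 and 28.9 CPM in depleted RPF, each above the highest steady RPF library at 18.7 CPM. Its log2 fold change was 1.1 (SE 0.34, edgeR adjusted p = 0.047), a 2.15-fold difference in mean CPM. The call is at the edge of the threshold and was lost in 14 of 18 alternatives, where the adjusted p rose as far as 0.121. It was lost without any single library other than RPF steady replicate 2. These were FRC replicates 1 (edgeR adjusted p = 0.0676), 2 (0.0601) and 3 (0.057), RPF steady replicates 1 (0.0886) and 3 (0.121), and RPF depleted replicates 1 (0.117), 2 (0.088) and 3 (0.113). Without the pair with almost no Y-linked reads the adjusted p was 0.111.

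Cyp51 was at 28.2, 26.7 and 27.6 CPM in depleted RPF, above all steady RPF libraries, but it did not pass (log2 fold change 0.83, SE 0.39, edgeR adjusted p = 0.171). It passed without RPF steady replicate 3 (log2 fold change 1.33, edgeR adjusted p = 0.0352). The depleted libraries were close to each other, while steady RPF replicate 3 stood at 24.7 CPM against 12.1 and 9.67 CPM in the other libraries of its group.

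Fdft1 was at 13.1, 6.72 and 12.0 CPM in depleted RPF and overlapped steady RPF (log2 fold change 1.18, 95% interval -0.43 to 2.78, edgeR adjusted p = 0.256). Hmgcs1 was at 24.6, 30.8 and 42.0 CPM, and overlapped steady RPF. Its log2 fold change was 0.01, with a 95% interval from -0.68 to 0.70. Mvd was at 13.0, 30.7 and 19.99 CPM, a log2 fold change of 0.27 with an interval from -0.62 to 1.17. Idi1 and Fdps had log2 fold changes of 0.51 and 0.21, with intervals reaching past 2 log2 units on both sides.

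Insig1 was at 54.9, 59.6 and 50.0 CPM in depleted RPF, below every steady RPF library, in the opposite direction to Sqle and Cyp51. It did not pass (log2 fold change -0.49, SE 0.17, edgeR adjusted p = 0.0712). It passed with upper quartile scaling (adjusted p = 0.0354), with DESeq2 (0.0116) and with the term for the pair of libraries with almost no Y-linked reads (0.0324).

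Depleted RPF against FRC shares libraries with both comparisons above. Of the 8 genes, 1 was higher and 2 were lower, where over all genes tested 16.9% were higher and 18.8% lower. The median log2 fold change was -0.39 for the 8 and -0.06 for all genes tested. Mvd was higher (log2 fold change 1.78, edgeR adjusted p = 0.00607), and Hmgcs1 (-1.30, 0.00724) and Insig1 (-0.95, 0.00222) were lower. These 3 calls held in all 18 alternatives. Sqle had a log2 fold change of -0.32 (95% interval -1.14 to 0.49) and Cyp51 of -0.45 (-1.39 to 0.49).

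The 8 genes did not all differ in the same direction between groups. Summed over the 8, the libraries held 281.8 ± 8.27 CPM in FRC, 161.0 ± 18.7 CPM in steady RPF and 176.0 ± 10.3 CPM in depleted RPF (SD, n = 3). The gap between FRC and RPF depends on the TMM factors, which were lower in FRC. Sums scaled by total counts alone were not made. The ratio of depleted to steady RPF was 1.09 for the sum of the 8. It was 1.44 for the 7 enzymes without Insig1, a sum added after seeing the data. From steady to depleted RPF, mean CPM went from 13.0 to 27.9 for Sqle and from 15.5 to 27.5 for Cyp51. It went from 4.71 to 10.6 for Fdft1, from 17.6 to 21.2 for Mvd and from 32.24 to 32.45 for Hmgcs1. The enzymes alone summed to 175.6 ± 4.43, 84.1 ± 8.70 and 121.1 ± 11.9 CPM. Insig1 made up 44.3% to 52.0% of the sum in steady RPF and 27.3% to 33.5% in depleted RPF. Within each group, no library was highest for more than 3 of the 8 genes, which is the smallest maximum that 8 genes over 3 libraries allow. FRC replicate 2, RPF steady replicate 1 and RPF depleted replicate 2 were each lowest for 4.

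**Figure D3:**
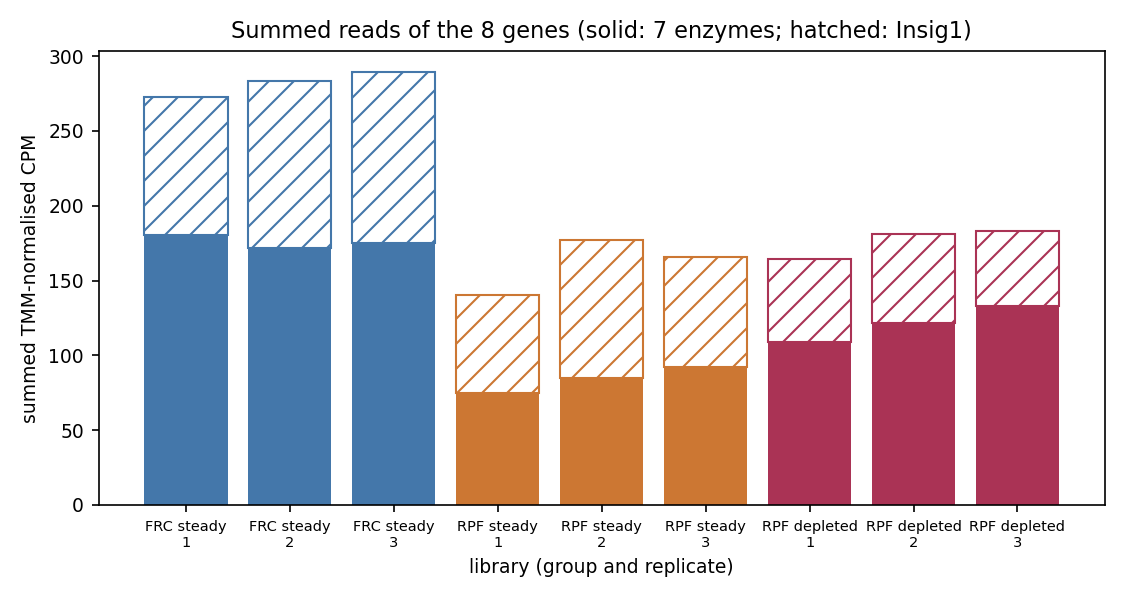
Summed TMM-normalised CPM (vertical axis, from 0) of the 7 enzymes (solid) and Insig1 (hatched) in each of the 9 libraries (horizontal axis). The enzyme part lies between 171.4 and 180.2 in FRC, 75.1 and 92.5 in steady RPF and 109.2 and 132.9 in depleted RPF.

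Among 13 other synthesis enzymes, 2 were lower and 0 higher in steady RPF than in FRC, with a median log2 fold change of -0.28. In depleted against steady RPF, 1 was higher and 0 lower, with a median of -0.32. The counts of this list and of the lists below are to be read against all genes tested. Of those, 14.4% were lower and 11.5% higher in steady RPF than in FRC, with a median log2 fold change of -0.02. In depleted against steady RPF, 9.96% of all genes tested were lower and 11.1% higher, with a median of -0.09. Hsd17b7, a sterol 3-ketoreductase gene, was at 0.0639, 0.0987 and 2.28 CPM in steady RPF and 9.87, 11.2 and 13.2 CPM in FRC (log2 fold change -3.83, edgeR adjusted p = 0.0476). Its call was lost in 11 of 18 alternatives, and without any single library other than RPF steady replicate 3 (adjusted p up to 0.104). Ebp, the sterol isomerase gene, was lower in steady RPF (-0.71, edgeR adjusted p = 0.0258). That call was lost without FRC replicate 1 or 3 or any one RPF steady replicate (adjusted p up to 0.0899). The Ebp call was lost too with upper quartile scaling (edgeR adjusted p = 0.0672) and with no filter on low counts (0.0527). Lbr, a sterol reductase and nuclear envelope gene, was higher in depleted RPF (0.78, edgeR adjusted p = 0.0409). It was lost without FRC replicate 3, any one RPF steady replicate, or RPF depleted replicate 1 or 2 (adjusted p up to 0.137). The Lbr call was lost too with RLE (edgeR adjusted p = 0.0533), with upper quartile scaling (0.0653) and with the term for the Y-linked pair (0.0565). Without the pair with almost no Y-linked reads, the adjusted p was 0.12 for Hsd17b7, 0.0944 for Ebp and 0.066 for Lbr. Lbr and Ebp were the most abundant of this list by reads.

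**Figure D4:**
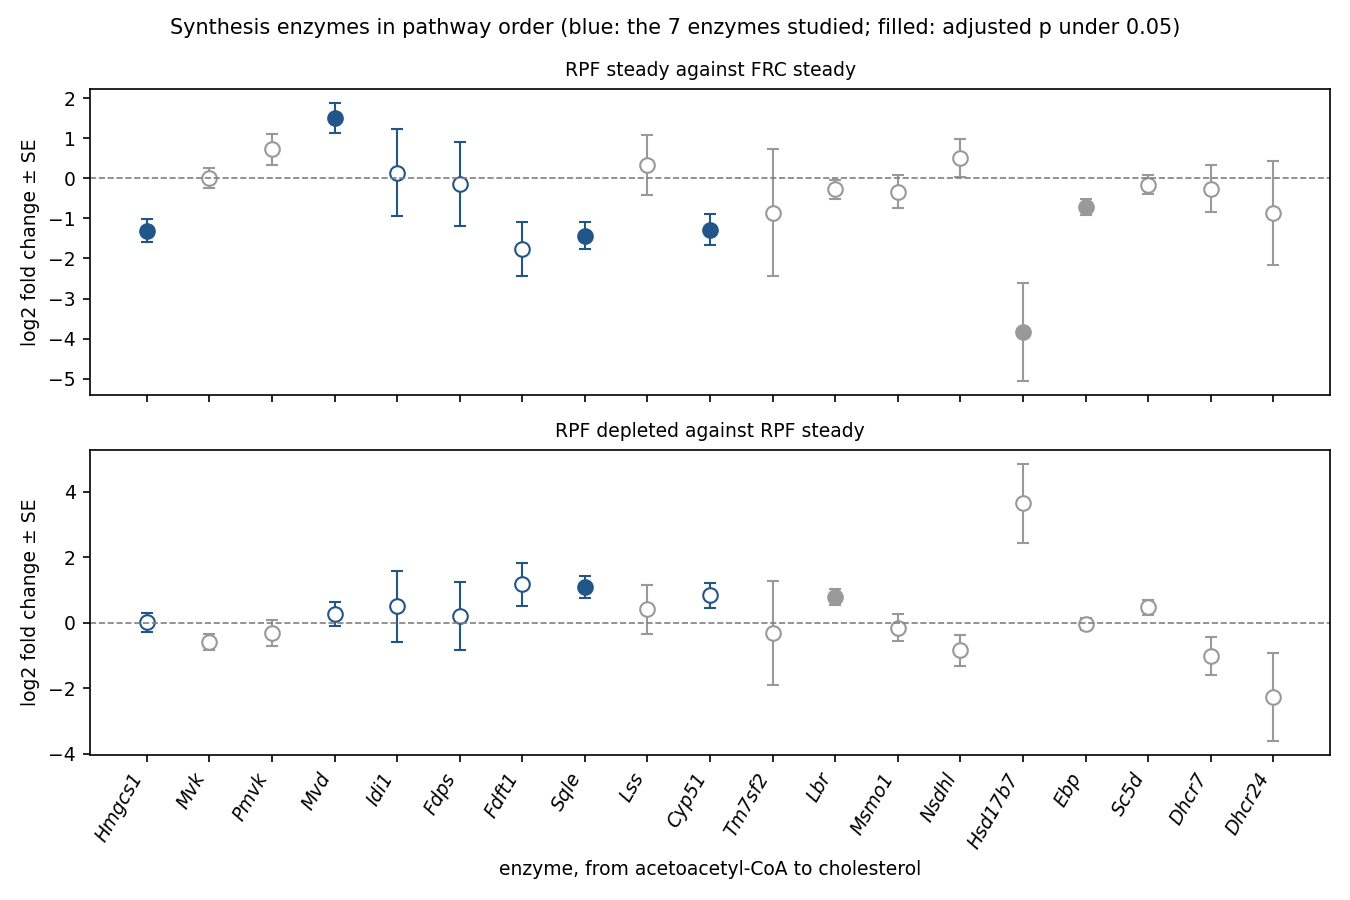
Log2 fold change with its SE (vertical axis) of synthesis enzymes in pathway order (horizontal axis) for steady RPF against FRC (top) and depleted against steady RPF (bottom); blue marks the 7 enzymes of the set, grey other enzymes, and filled points passed an edgeR adjusted p under 0.05. Sqle is filled in both panels, at -1.43 in the top panel and 1.1 in the bottom one.

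Of 8 genes of SREBP control, 2 were higher and 1 lower in steady RPF than in FRC, and 0 were higher and 1 lower in depleted than in steady RPF. Their median log2 fold changes were -0.02 and -0.26. Srebf2 was at 352.1, 398.6 and 399.3 CPM in FRC, 169.1, 160.1 and 253.7 CPM in steady RPF and 222.7, 286.0 and 310.3 CPM in depleted RPF. It was lower in steady RPF than in FRC (-0.98, edgeR adjusted p = 0.00612) and did not pass in depleted against steady RPF (0.49, edgeR adjusted p = 0.116). Rnf139 (0.78), which encodes a ubiquitin ligase of the endoplasmic reticulum, was higher in steady RPF than in FRC, a call that was lost without the pair of libraries with almost no Y-linked reads (adjusted p = 0.0797 with edgeR). Rnf145, another such ligase gene, was higher there (0.46, edgeR adjusted p = 0.0454) and lower in depleted RPF (-0.81, edgeR adjusted p = 0.00432). Its first call was lost without any single library other than FRC replicate 2 (adjusted p up to 0.146), without that pair (0.161) and with no filter on low counts (0.072). Srebf2 and Mbtps1, the gene of a protease that cleaves SREBP, had the most reads of the list, and Mbtps1 was not called in either.

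Of 13 genes of sterol uptake and transport, 1 was higher and 4 lower in steady RPF than in FRC, and 0 were higher and 2 lower in depleted than in steady RPF. Their median log2 fold changes were -0.67 and -0.54. Mylip, which encodes a ubiquitin ligase that degrades lipoprotein receptors, was at 38.9, 38.5 and 36.4 CPM in steady RPF and 10.6, 6.42 and 9.44 CPM in depleted RPF (-2.10, edgeR adjusted p = 0.000387). It was also lower in steady RPF than in FRC (-0.99, edgeR adjusted p = 0.0122), but not without the pair with almost no Y-linked reads (0.0998). Lipa, the lysosomal acid lipase gene, was higher in steady RPF than in FRC (1.20) and lower in depleted than in steady RPF (-0.82). Scarb1 (-1.1), an HDL receptor gene, and Npc1 (-1.20) and Npc2 (-0.67), which export cholesterol from lysosomes, were lower in steady RPF than in FRC. Npc2 and Lipa had the most reads of the list.

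Of 8 tested genes of sterol efflux and esterification, 0 were higher and 2 lower in steady RPF than in FRC, and 1 was higher and 3 lower in depleted than in steady RPF. Their median log2 fold changes were -0.28 and -0.73. Abca1, a cholesterol exporter gene, and Apoe, a lipid carrier gene, were lower in both. Abca1 had log2 fold changes of -1.41 and -0.84 and Apoe of -2.19 and -1.07, and these 2 had the most reads of the list. Soat1, which encodes an enzyme that esterifies cholesterol, was at 51.9, 49.1 and 60.1 CPM in steady RPF and 133.5, 132.1 and 134.0 CPM in depleted RPF (1.31, edgeR adjusted p = 0.000171). Nr1h2, a liver X receptor gene, was lower in depleted RPF (-0.63, edgeR adjusted p = 0.0264). That call was lost without RPF steady replicate 2 or 3 or any one RPF depleted replicate (adjusted p up to 0.101).

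Of 4 genes of oxysterol synthesis, 2 were higher and 1 lower in depleted than in steady RPF, and 0 were higher and 1 lower in steady RPF than in FRC. Their median log2 fold changes were 0.82 and 0.05. Ch25h, the cholesterol 25-hydroxylase gene, was at 9.52, 6.38 and 2.65 CPM in steady RPF and 537.2, 412.7 and 270.7 CPM in depleted RPF (6.03, SE 0.65, edgeR adjusted p = 0.00031). Cyp7b1, an oxysterol hydroxylase gene, was higher in depleted than in steady RPF (3.26) and lower in steady RPF than in FRC (-4.30). Cyp27a1, the sterol 27-hydroxylase gene, was lower in depleted RPF (-2.50, edgeR adjusted p = 0.002). These calls held in all 18 alternatives. Ch25h and Cyp27a1 had the most reads of the list.

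**Figure D5:**
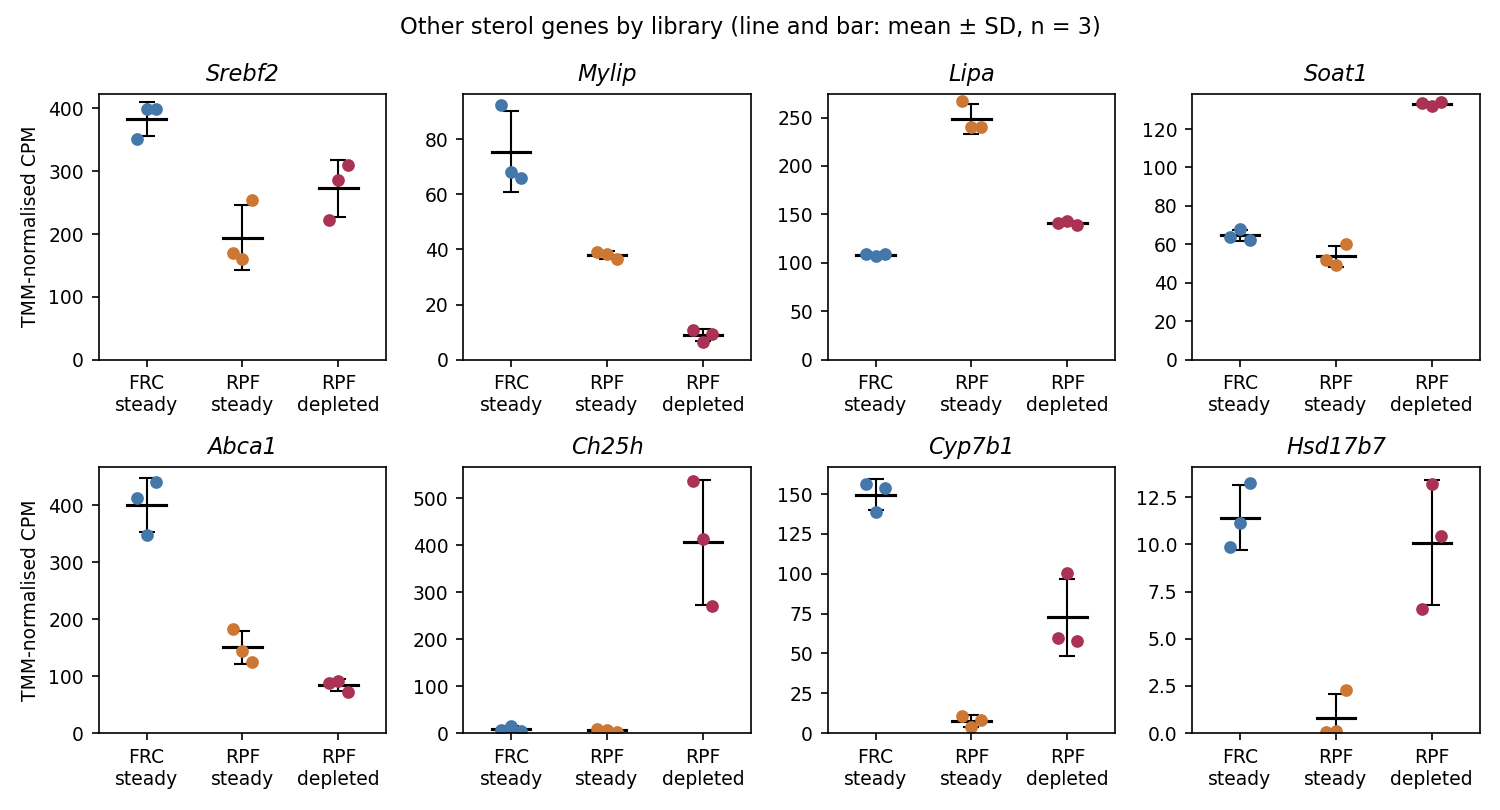
TMM-normalised CPM (vertical axis, linear, from 0) of 8 other sterol genes in each library (points), with the mean (line) and SD (bar, n = 3) of each group. Depleted RPF lies lowest for Mylip, between 6.42 and 10.6 CPM, and highest for Soat1, between 132.1 and 134.0 CPM.

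In the isoprenoid branch (11 genes), 0 were called in steady RPF against FRC, and 2 were higher and 0 lower in depleted than in steady RPF, with median log2 fold changes of 0.21 and 0.06. The 2 were Nus1 (1.12), a subunit of dehydrodolichyl diphosphate synthase, and Rabggtb (1.70), a subunit of the Rab geranylgeranyl transferase. The call of Nus1 was lost without any one RPF steady replicate or RPF depleted replicate 1 (adjusted p up to 0.0667), and that of Rabggtb without RPF depleted replicate 1 (0.0556). Without the pair with almost no Y-linked reads, the adjusted p of Nus1 was 0.0559. Fnta and Dhdds had the most reads of this list and were not called in either. In fatty acid synthesis (10 genes), 0 were higher and 3 lower in steady RPF than in FRC, and 1 was higher and 3 lower in depleted than in steady RPF, with medians of -0.70 and -0.35. Fasn, the fatty acid synthase gene, was lower in steady RPF than in FRC (-0.99) and higher in depleted than in steady RPF (0.97). Its first call was lost without FRC replicate 3 (0.0538) or RPF steady replicate 2 (0.0528), and its second without RPF steady replicate 2 (0.068) or RPF depleted replicate 1 (0.0735) or 3 (0.0528). The desaturase genes Scd1 (-3.03) and Fads2 (-2.07) were lower in steady RPF than in FRC, Fads2 not without the pair with almost no Y-linked reads (adjusted p = 0.0593 with edgeR). Scd2 (-2.18), Fads1 (-0.68) and Acss2 (-1.86) were lower in depleted RPF. Calls were lost for Fads1 without any one RPF steady replicate or RPF depleted replicate 1 or 3 (adjusted p up to 0.0956), and for Acss2 without any one RPF steady replicate or RPF depleted replicate 1 or 2 (up to 0.107). Without that pair, the adjusted p in depleted against steady RPF was 0.122 for Fads1, 0.0724 for Acss2 and 0.0529 for Fasn. With the model term for that pair, the edgeR adjusted p there was 0.0654 for Fads1 and 0.0557 for Acss2. Acly and Fasn had the most reads of the list, and Acly was not called in either.

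The patterns most like the mean of the 8 genes over the 9 libraries were ranked among 8664 genes by the root mean square difference of standardised log2 CPM, in SD units. The closest were Rnf2 (0.27), Col6a4 (0.34), Vps53 (0.37), Slc25a28 (0.37), Pgm3 (0.41), Slc43a1 (0.41), Adcy4 (0.42) and Zfp954 (0.42), where the median over all genes compared was 1.32. Of the 8 genes themselves, Fdft1 was closest to their mean at 0.50 and Mvd farthest at 1.68. Libraries of a group share their condition, so this is a description of these libraries.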

How the data were processed

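Polyadenylated RNA was sequenced from 9 libraries, 3 per group, each of 2 pooled mice. The deposited table gives the authors' raw read counts per gene, and these counts were used as deposited. Its column of median transcript lengths was used for levels per kb. Per the submitters' processing notes, cutadapt 1.10, Bowtie2 2.2.8, STAR 2.5.3a, HTSeq 0.6.1p1 and the build mm10 were used. The sources used here name no annotation release and no strand setting. The 24 unused per-sample columns were left out.

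Of 27370 genes, 15103 passed filterByExpr. They were tested with edgeR 4.0.16 in R 4.3.3, using TMM scaling, robust quasi-likelihood, all 9 libraries and 6 residual degrees of freedom. Tests were two-sided with Benjamini-Hochberg adjustment over all genes tested. A gene was called at an adjusted p under 0.05. Standard errors were taken from the fold change and its F statistic, and 95% intervals use 6 degrees of freedom. The test borrows spread across genes, so these intervals can be wider than its p-values imply. Values per library are CPM, the counts scaled by TMM library size. The fitting code was tested on simulated counts of independent libraries, which checks the code and not the calls made here.

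Other settings tried were scaling by RLE or by upper quartile, testing with no filter on low counts or with one of 1 CPM, DESeq2 1.42.0, limma-voom (limma 3.58.1), only the 2 groups compared, and each library left out. 4 more were added after seeing the data. Those are leaving out the pair of libraries with almost no Y-linked reads, a model term for that pair, the sum without Insig1, and levels per kb of the longest coding transcript. Copies were searched with BLAST 2.17.0 in GENCODE transcripts of GRCm38. The 8 genes and the lists were chosen with earlier results of these data known. The text names all 8 genes. From each pathway list it names every gene called in depleted against steady RPF or in steady RPF against FRC, and the 2 most abundant genes. It also names the 8 genes whose pattern was most like the mean of the 8, among protein-coding genes with a mean of at least 10 CPM. Some genes of these lists are not reported here and are left out of the counts of their lists and of the likeness ranking. P-values measure the spread between pooled libraries.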

Additional observations from a re-analysis of the deposited data

How the results depend on the processing

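No paired analysis was possible because the labels give no replicate numbers that are shared across groups, and the numbers used here only follow accession order. Of 426 alternative values for the fold changes of the 8 genes, 361 kept their direction and their side of the threshold, 30 lost the call, 11 gained it and 24 changed sign. The sign changes concern values that did not pass in either setting. In depleted against steady RPF, Hmgcs1 was at -0.037 with RLE, -0.083 with upper quartile, -0.015 with no filter, -0.049 with DESeq2 and -0.019 with limma-voom. With libraries left out, it ranged there from -0.22 to 0.17, Mvd from -0.090 to 0.53, Idi1 from -0.16 to 0.99 and Fdps from -0.30 to 0.68. In steady RPF against FRC, Fdps was at 0.032 with upper quartile, and with libraries left out it ranged from -0.34 to 0.49 and Idi1 from -0.23 to 0.38. In depleted RPF against FRC, Fdps was at -0.23 with limma-voom and -0.015 with the term for the pair of libraries with almost no Y-linked reads, and with libraries left out it ranged from -0.42 to 0.55 and Idi1 from -0.019 to 1.13. The cause was not tested. In depleted against steady RPF, 0 of the 8 were higher with RLE, upper quartile, no filter, only the 2 groups compared or the term (0 to 1 with libraries left out), and 1 was lower with upper quartile, DESeq2 or the term. In steady RPF against FRC, 0 were higher with limma-voom (0 to 1 with libraries left out), and 5 were lower with DESeq2 or the term (0 to 4 with libraries left out). Over all genes, DESeq2 called 2590 lower in depleted against steady RPF where edgeR called 1505 (963 to 1561 with libraries left out; 968 without RPF steady replicate 2), and 2610 higher in steady RPF against FRC where edgeR called 1734 (1129 to 1583 with libraries left out). The ratio of summed CPM of steady RPF to FRC was 0.572, 0.641 with upper quartile and 0.479 without Insig1. Scaling by total counts alone was not tried for this ratio. Without Insig1, depleted RPF was at 1.44 times steady RPF and 0.69 times FRC, against 1.09 and 0.625 with it. Upper quartile scaling moved the median log2 fold change of all genes to 0.14 in steady RPF against FRC and left none of the 33 list gene results tried with another sign. Of those 33, 19 kept their call in all alternatives. Counts of Idi1 and Fdps limit what could be detected for them.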
